A study of Mus musculus with 6 samples.

Results

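Complement genes were examined in cultured mouse mesenchymal stem cells that had been exposed to terahertz radiation or left unexposed. The genes were 9 components, regulators and receptors of complement: C1qa, C1qb, C1qc, C3, C4b, Cfb, Cfp, C3ar1 and C5ar1. They were found by taking every probe set whose symbol in the platform annotation was exactly one of these names. This gave 13 of the 45037 probe sets tested, for 7 of the 9 genes, out of 18193 genes in all. C3 was listed for no probe set and C4b only for one shared with C4a, so both were not analysed here. For a contrast of macrophage-type C1q with stromal components, Cfb was therefore the single stromal-type gene measured.

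The cells were bought as mouse mesenchymal stem cells, and the labels give neither strain nor age. All cultures, controls included, received a mixture that drives fat cell formation, added again 48 h before exposure. Its parts were 5 µg/ml insulin, 1 µM rosiglitazone (which activates the fat cell regulator PPARG), 1 µM dexamethasone (a glucocorticoid) and 100 µM IBMX (an inhibitor of cyclic nucleotide breakdown). The irradiated group received broadband terahertz pulses of 35 fs centred near 10 THz for 12 h, at 1 kHz and an average of 1 mW/cm2. The control group stood beside it without irradiation, and both were kept at 26 to 27 °C. The work was done in 3 experiments, each with a pair of arrays, for 6 arrays in all. The comparison asks whether complement transcripts differ between a culture under the beam and the one beside it.

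Complement is a cascade of blood and tissue proteins that marks microbes and dying cells for removal. Its classical branch starts when C1q, built from the chains encoded by C1qa, C1qb and C1qc, binds a target and activates the proteases C1r and C1s. The alternative branch uses factor B (Cfb) and is stabilised by properdin (Cfp), and both branches converge on C3. The peptides released on the way signal through the receptors C3ar1 and C5ar1. Macrophages are the main source of C1q, while fibroblasts and fat cells are known sources of several other components.

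C1qb, C1qc and C1qa lie next to each other, in this order, among the protein-coding genes of mouse chromosome 4 (RefSeq, GRCm38.p6). RefSeq promoter windows, from 250 bases before to 50 bases after the start site, were on hand for 5 of the 7 measured genes. The 3 windows that hold the letters GAGGAA are shown, with that of C5ar1 as an example without them. A link between these letters and the levels was not tested. Capitals mark exact matches to these letters on either strand, a form of the site that ETS factors such as the macrophage regulator PU.1 can bind. Other forms of that site were not searched for, so a window without these letters may still hold one. The C1qb window is chr4:136886151-136886450, the C1qc window is chr4:136892865-136893164 and the Cfp window is chrX:20931506-20931805, all on the minus strand. The C5ar1 window is chr7:16259289-16259588 on the same strand.
C1qb: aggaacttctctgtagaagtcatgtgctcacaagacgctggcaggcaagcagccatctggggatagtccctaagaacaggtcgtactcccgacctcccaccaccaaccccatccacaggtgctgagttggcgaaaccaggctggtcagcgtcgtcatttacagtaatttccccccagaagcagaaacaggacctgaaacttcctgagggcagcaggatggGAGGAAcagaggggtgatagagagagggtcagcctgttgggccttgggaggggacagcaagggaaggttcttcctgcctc
C1qc: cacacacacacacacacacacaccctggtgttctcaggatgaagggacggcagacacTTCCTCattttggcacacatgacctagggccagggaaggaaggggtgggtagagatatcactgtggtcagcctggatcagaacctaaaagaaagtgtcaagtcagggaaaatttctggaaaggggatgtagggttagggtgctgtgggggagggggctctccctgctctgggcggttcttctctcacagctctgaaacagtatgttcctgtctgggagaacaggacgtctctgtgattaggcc
Cfp: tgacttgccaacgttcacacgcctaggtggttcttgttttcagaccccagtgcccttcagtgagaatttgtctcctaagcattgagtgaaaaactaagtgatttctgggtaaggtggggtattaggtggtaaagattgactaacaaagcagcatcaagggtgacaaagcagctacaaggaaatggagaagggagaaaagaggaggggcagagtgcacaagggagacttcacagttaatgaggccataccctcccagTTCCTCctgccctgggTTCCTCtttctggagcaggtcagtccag
C5ar1: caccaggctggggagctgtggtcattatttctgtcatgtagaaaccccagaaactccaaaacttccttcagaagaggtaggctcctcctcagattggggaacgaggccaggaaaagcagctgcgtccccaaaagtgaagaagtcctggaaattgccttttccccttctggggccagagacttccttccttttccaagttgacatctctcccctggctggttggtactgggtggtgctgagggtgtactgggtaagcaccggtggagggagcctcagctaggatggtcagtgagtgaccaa
The letters start 30 bases before the start site in C1qb and 193 bases before it in C1qc, and occur 2 times after it in Cfp. They are absent from the windows of C3ar1 and C5ar1. Of 32851 windows of this length 28.3% hold them, so 3 of 5 is given as a description. The letters TGANTCA, an AP-1 type motif that does not overlap the first, were found in the C3ar1 window alone and in 7.81% of all windows.

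Levels are the deposited log2 values, and differences are irradiated minus control within an experiment. Precision is limited by the number of arrays, whose medians were 4.74 to 4.80. The hybridisation controls, spiked in before hybridisation, gave a mean difference of 0.50 in experiment 3, against 0.08 and -0.03 in experiments 1 and 2. Their part in the results was not tested. Levels of different probe sets are not directly comparable, so differences were taken within a gene, or a fixed list, between arrays. Words such as bright, dim or expressed rank probe sets only roughly.

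All 7 measured complement genes had a lower mean in irradiated cultures, by 0.08 to 0.32 on the log2 scale, and none of these differences passed the test. Of all 18193 genes, 48.8% had a lower mean. The median difference was -0.15 over the 7 genes against 0.00 over all expressed genes, those with a mean of at least 6 in 1 group. In a limma fit blocked by experiment, with p-values adjusted by Benjamini-Hochberg across the whole array, 0 of 13 complement probe sets passed 0.05, and 0% of all probe sets did. Adjusted p ran from 0.56 to 0.887 over the 13. At an unadjusted p under 0.05 there was 1 of 13, a C5ar1 probe set, where 4.20% of all probe sets were past it in the same direction. Without the block this count was 0, and with an intensity trend and a robust prior it was 3, against 4.50% of all probe sets. Of the 7 genes C1qb, C5ar1 and Cfb were lower in all 3 experiments, which held for 2744 of all 18193 genes and for 18.7% of expressed genes. Cfb itself lay below the level of 6, while shares over expressed genes leave such genes out. Without experiment 2 the count of genes lower in every remaining experiment was 6, against 27.6% of expressed genes. With each array centred on its median it was 5, against 19.3%.

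**Figure D1:**
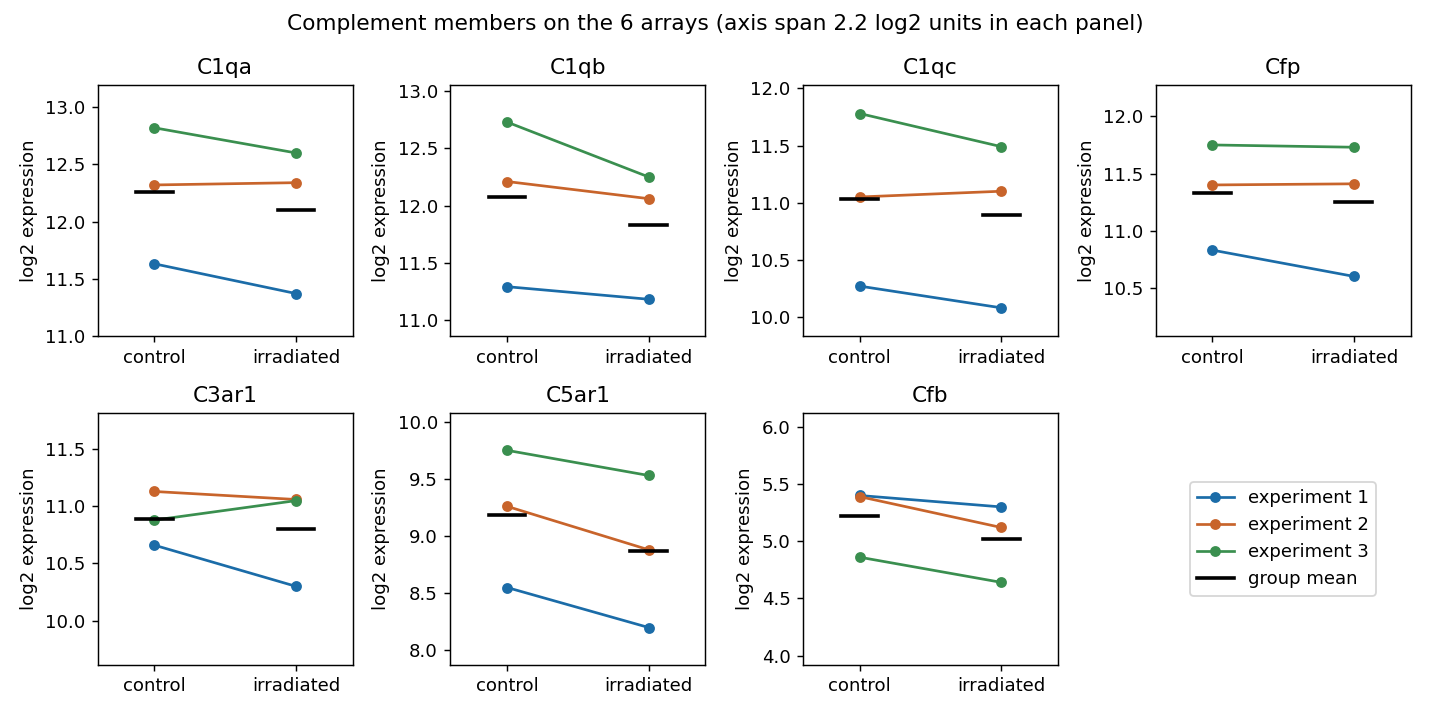
Log2 expression of the 7 measured complement genes on each array, with 1 line per experiment joining a control to its irradiated culture and black bars for the group means (n = 3). Experiment 1 lies lowest for 6 genes and highest for Cfb, and for each gene the experiment means span a wider range than the mean step from control to irradiated, as they do for 79.9% of all genes.

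The 3 chains of C1q were bright and varied together. C1qa, the A chain, read 11.63, 12.32 and 12.82 in the controls of experiments 1 to 3 and 11.37, 12.34 and 12.60 in the irradiated cultures. The group means were 12.26 ± 0.60 (SD, n = 3) and 12.10 ± 0.65 (SD, n = 3), and the groups overlapped. The C1qa difference was -0.15 ± 0.10 (SE), with a 95% interval of -0.40 to 0.10 and a limma adjusted p of 0.73. Experiments 1 and 3 were lower by 0.26 and 0.22 after irradiation, while experiment 2 differed by 0.02.

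C1qb encodes the B chain. It read 11.29, 12.21 and 12.73 in controls and 11.18, 12.06 and 12.25 in irradiated cultures. On this probe set, the brightest of 3, the irradiated culture was lower in every experiment, but the groups overlapped because the experiments stood far apart. The difference was -0.25 ± 0.11 (SE), with a 95% interval of -0.52 to 0.03 and a limma adjusted p of 0.64. Experiment 3 differed by -0.48, and the mean without it was -0.13. The other 2 C1qb probe sets differed by -0.23 ± 0.12 (SE) and -0.16 ± 0.13 (SE), each with its widest difference, -0.50, in experiment 3. The latter was not lower in every experiment, with 0.05 in experiment 1 and -0.03 in experiment 2. The probe set used for C1qb and 1 of the others are of the x_at class, whose probes can match more than 1 transcript. The C1qb probe set of the plain class read 11.28, 12.09 and 12.77 in controls and 11.15, 12.04 and 12.27 in irradiated cultures.

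C1qc, the C chain, read 10.27, 11.05 and 11.78 in controls and 10.08, 11.10 and 11.49 in irradiated cultures. Experiments 1 and 3 were lower by 0.19 and 0.29, and experiment 2 was higher by 0.05. The C1qc difference was -0.14 ± 0.11 (SE), with a 95% interval of -0.40 to 0.12 and a limma adjusted p of 0.758. The median of the 3 chains was -0.15, with medians of -0.19, 0.02 and -0.29 in the 3 experiments. Bulk arrays cannot tell fewer C1q-producing cells from less C1q RNA per cell.

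Properdin, which stabilises the alternative branch convertase and is made by leukocytes, read 10.83, 11.40 and 11.75 in controls and 10.60, 11.41 and 11.73 in irradiated cultures. Experiment 1 differed by -0.23, and experiments 2 and 3 by 0.01 and -0.02. The Cfp difference was -0.08 ± 0.10 (SE), with a 95% interval of -0.32 to 0.16 and a limma adjusted p of 0.867. The other Cfp probe set lay near the level of 6, with means of 6.10 ± 0.54 (SD, n = 3) and 5.76 ± 0.15 (SD, n = 3). It differed by 0.01, 0.11 and -1.12, since the control array of experiment 3 read 6.72 and the other 5 arrays lay between 5.60 and 5.88.

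C5ar1, the receptor through which C5a recruits and activates myeloid cells, had the smallest p of the 13 probe sets. Its brighter probe set read 8.55, 9.26 and 9.75 in controls and 8.20, 8.88 and 9.53 in irradiated cultures. Each irradiated culture was below its own control, by 0.35, 0.38 and 0.22, while the groups overlapped. The difference was -0.32 ± 0.10 (SE), or 1.25-fold, with a 95% interval of -0.55 to -0.08 and a limma adjusted p of 0.56. The second C5ar1 probe set was lower by 0.26, 0.04 and 0.24, a mean difference of -0.18 ± 0.10 (SE), with an interval of -0.42 to 0.06.

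C3ar1, the receptor for C3a, read 10.66, 11.13 and 10.88 in controls and 10.30, 11.06 and 11.05 in irradiated cultures. The direction differed between experiments, with -0.36, -0.07 and 0.17. The mean of -0.09 ± 0.13 (SE) had a 95% interval of -0.39 to 0.22 and a limma adjusted p of 0.887, and it was 0.05 without experiment 1. The 2 other C3ar1 probe sets differed by -0.21 ± 0.12 (SE) and -0.17 ± 0.13 (SE). In all 3 probe sets the widest difference came from experiment 1, at -0.36, -0.44 and -0.52.

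Cfb, factor B, the protease of the alternative branch and the stromal-type gene of the group, was dim on every array. It read 5.40, 5.39 and 4.86 in controls and 5.30, 5.12 and 4.64 in irradiated cultures, all below the level of 6. The irradiated culture was lower in each experiment, by 0.10, 0.27 and 0.22. The difference was -0.20 ± 0.10 (SE), with a 95% interval of -0.43 to 0.04 and a limma adjusted p of 0.652. A signal this low may hold little from the transcript itself, and its part was not tested.

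**Figure D2:**
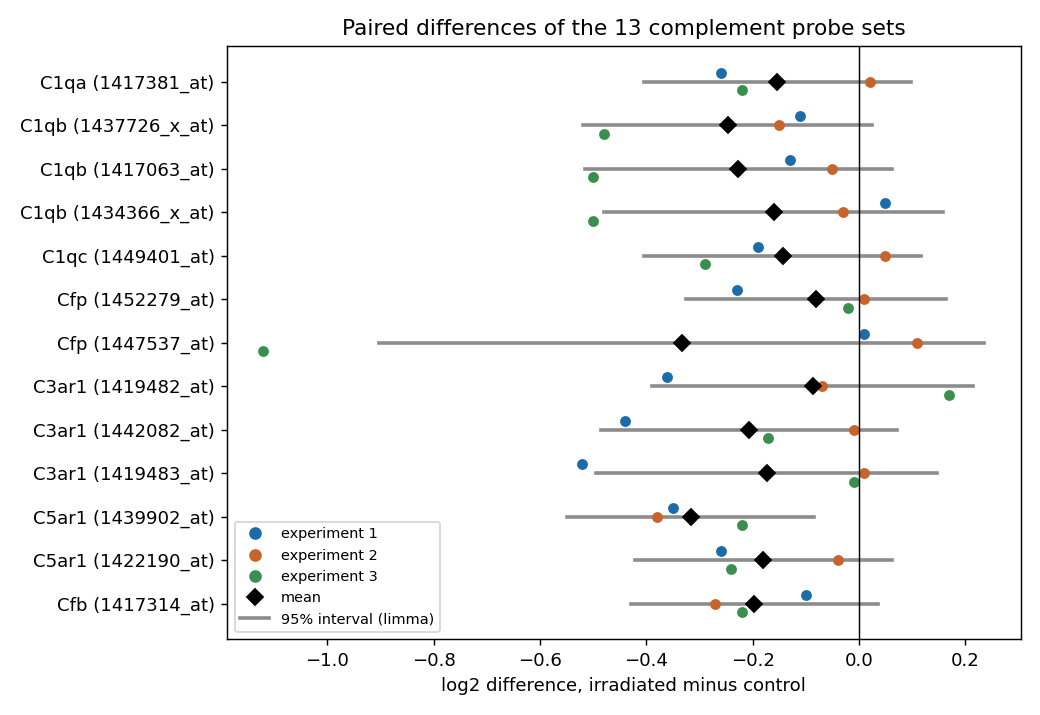
Log2 difference, irradiated minus control, for each of the 13 complement probe sets, with coloured points for the 3 experiments, a black diamond for the mean and a grey bar for its 95% interval from limma. All 13 means lie below 0 and 12 of the 13 intervals cross it, the exception being the brighter C5ar1 probe set. The 13 probe sets read 7 genes on the same 6 arrays. Of all 45037 probe sets 21581 had a lower mean. At an unadjusted limma p under 0.05 there were 1892 lower and 1739 higher.

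The complement genes differed widely between the experiments. The range of the 3 experiment means, each over its control and irradiated array, was 1.21 for C1qa, 1.25 for C1qb, 1.46 for C1qc, 1.26 for C5ar1 and 1.02 for Cfp. It was 0.61 for C3ar1 and 0.60 for Cfb. In all 13 probe sets this range was wider than the size of the irradiation difference, as it was in 80.0% of all probe sets. Its median over the 7 genes was 1.21, against 0.22 over all expressed genes. The mean of experiment 1 was the lowest of the 3 for 6 of the 7 genes, where 31.1% of expressed genes had it lowest. A moderated F test of the 3 experiments in the same limma fit, added after the values were seen, passed 0 of the 13 probe sets at an adjusted p of 0.05, where 0.00444% of all probe sets passed. The smallest adjusted p of this test was 0.0702, shared by C1qa, 2 C1qb probe sets, C1qc and C5ar1. With an intensity trend and a robust prior 8 of the 13 passed it, where 1.59% of all probe sets did, and with array weights 5, where 0.204% did.

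Cfb ran against the C1q chains over the experiments. Its experiment means were 5.35, 5.25 and 4.75, lowest in experiment 3 and close together in the others. Those of C1qc were 10.18, 11.07 and 11.63. The C1r and C1s proteases, which form the C1 complex with C1q, also had their lowest values in experiment 3. C1ra had experiment means of 8.62, 8.22 and 7.96, and C1s1 of 8.47, 8.17 and 7.89. Masp1, a protease of the lectin branch, had 10.28, 9.60 and 9.43. None of these 4 passed the test of the experiments, with limma adjusted p from 0.0915 to 0.168. Serping1 and Clu differed little between experiments, with experiment means of 11.935, 11.975 and 12.055 and of 6.56, 6.615 and 6.645. Their ranges were 0.12 and 0.085, against a median of 0.22 over all expressed genes. The receptor gene Cd93 and the ficolin gene Fcna were lowest in experiment 1 and highest in experiment 3, with ranges of 1.47 and 0.675. Of the 15 other complement genes that were expressed, experiment 1 was lowest for 7 and experiment 3 highest for 5. Among all 9302 expressed genes these counts were 2896 and 2926.

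**Figure D3:**
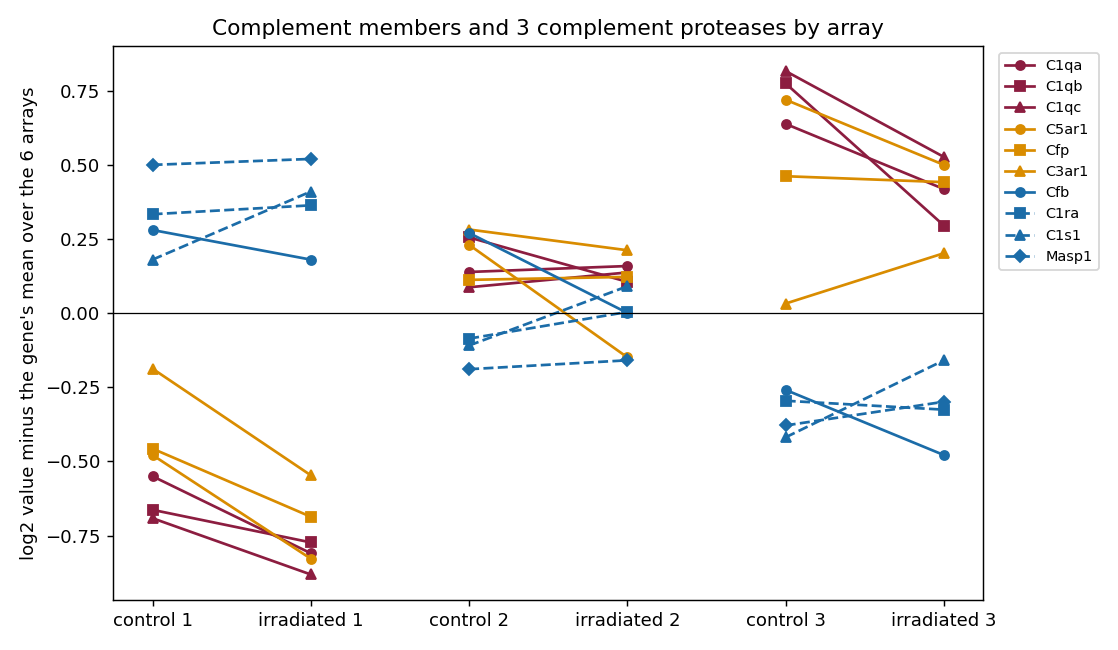
Log2 value minus the gene's own mean over the 6 arrays, with lines joining the control and irradiated array of an experiment, for the 7 measured complement genes (solid) and the proteases C1ra, C1s1 and Masp1 (dashed). C1q chains, C5ar1 and Cfp are below 0 in experiment 1 and above 0 in experiment 3, and Cfb and the proteases are on the opposite sides.

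Macrophage markers were measured beside these genes. Of 19 measured markers 17 were expressed, among them the leukocyte phosphatase gene Ptprc at 9.22 to 10.11 and the colony-stimulating factor receptor gene Csf1r at 12.38 to 13.54. The dim markers were Cx3cr1 and Cd163. Stromal markers were present as labelled, with 10 of 11 expressed (Thy1, at 3.76 to 4.26, was dim), and 9 of 9 fat cell markers were expressed. None of 6 lymphoid and none of 6 endothelial markers reached the level of 6, and of 7 granulocyte markers S100a8 alone did.

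In 18 of 19 macrophage markers experiment 1 had the lowest mean, as it had in 7464 of all 18193 genes. Experiment 3 had the highest mean in 15 of 19, as it had in 7247 of all genes. The mean log2 level of the macrophage markers was 10.36 to 10.95 in controls and 10.17 to 10.83 in irradiated cultures. Their summed linear signal, to which the brightest probe sets add most, was 69463 to 104530 in controls and 61213 to 94563 in irradiated cultures. For the C1q chains the sums were 6908 to 17542 and 6049 to 13956. From control to irradiated the macrophage sum differed by -0.18, -0.01 and -0.14 in log2 over the 3 experiments, and the C1q sum by -0.19, -0.04 and -0.33. Of the 19 markers 15 had a lower mean in irradiated cultures, 7 of them in all 3 experiments, with a median difference of -0.08. Of all 18193 genes 48.8% had a lower mean, and 2744 were lower in all 3 experiments. The 4 expressed markers with the largest statistic were the lipopolysaccharide receptor Cd14 at -0.73 ± 0.19 (SE), Ms4a7 at -0.19, the lysosomal membrane protein gene Laptm5 at -0.19 and the protease gene Ctss at -0.17, and none passed adjustment. The part of macrophage content in the complement differences was not tested.

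The median range of the experiment means was 0.605 over the macrophage markers, 0.29 over the stromal and 0.255 over the fat cell markers. Of 11 stromal markers 5 were lower and 6 higher, with a median of 0.08, and the mean of experiment 1 was the lowest for 4. The 4 with the largest statistic were the adhesion molecule genes Vcam1 (0.49) and Alcam (-0.33), the growth factor receptor gene Pdgfrb (-0.28) and the ectonucleotidase gene Nt5e (0.24). Of 9 fat cell markers 7 were lower, with a median of -0.03. Those with the largest statistic were the fatty acid transporter gene Cd36 (-0.11), the adipokine genes Adipoq (0.09) and Retn (-0.08) and the lipase gene Lipe (-0.13). Median differences were -0.01 for the granulocyte list, 0.065 for the lymphoid and -0.03 for the endothelial list. None of these markers passed adjustment with limma, and the smallest adjusted p among these lists was 0.538, for Vcam1.

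The genes whose pattern over the 6 arrays was most like the mean of the 3 C1q chains were found among 3065 expressed genes with an SD of at least 0.2. The 6 arrays are 3 pairs, so the correlations are a description. The 6 highest were Sirpa, a myeloid inhibitory receptor (Pearson r = 0.998), Csf1r (0.996), the homeobox gene Cux1 (0.996), the arrestin gene Arrb2 (0.996), the chemokine gene Cxcl13 (0.994) and Aoah, which encodes an enzyme that inactivates lipopolysaccharide (0.992). On the same measure Cfp had r = 0.986, C5ar1 0.968, C3ar1 0.78 and Cfb -0.715. Among the 3065 genes these values would rank 28, 93, 591 and 2067. Cxcl13 read 6.55, 8.13 and 9.12 in controls and 6.31, 8.09 and 8.85 in irradiated cultures, so its experiments stood even further apart than those of C1qc.

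The rest of the complement system showed no common direction. Of 46 other complement genes listed, 38 were measured, 15 of them expressed. None of the 38 passed adjustment with limma, with 22 lower and 16 higher and a median of -0.04. At an unadjusted p under 0.05 there were 3 lower and 1 higher, where 838 of all 18193 genes were lower and 674 higher. The expressed gene past that level was C1s1, the C1s protease, which read 8.36, 8.07 and 7.76 in controls and 8.59, 8.27 and 8.02 in irradiated cultures. It was higher in each experiment, by 0.23, 0.20 and 0.26, a mean of 0.23 ± 0.09 (SE) with an interval of 0.01 to 0.45 and a limma adjusted p of 0.613. C1s1 thus differed in the opposite direction to the C1q chains of the same complex, and the difference between them was not tested. Its partner C1ra differed by 0.03 ± 0.09 (SE).

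Among inhibitors, Serping1, which encodes the C1 inhibitor, read between 11.85 and 12.12 on all arrays and differed by 0.00 (95% interval -0.25 to 0.26). The membrane regulator Cd55, which speeds the decay of convertases, was lower by 0.15, 0.29 and 0.19, a mean of -0.21 ± 0.10 (SE). Cd59a, which blocks the membrane attack complex, differed by -0.04 (interval -0.27 to 0.18). Clu, the fluid-phase regulator clusterin, was higher by 0.10, 0.13 and 0.21, a mean of 0.15 ± 0.09 (SE). C2, the classical branch protease, differed by 0.33, 0.04 and -0.12. Limma adjusted p of these 5 genes lay between 0.638 and 0.993.

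**Figure D4:**
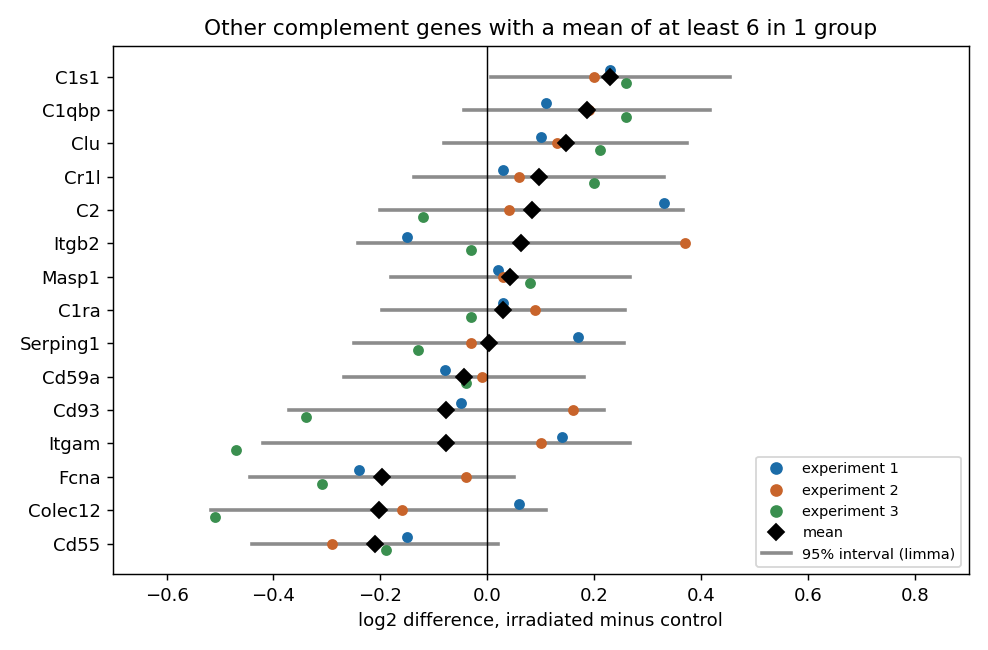
Log2 difference, irradiated minus control, for the 15 other complement genes with a mean of at least 6 in 1 group, drawn as for the members with experiment points, mean and 95% limma interval. C1s1 is at the top with 0.23 and Cd55 at the bottom with -0.21, and the interval of C1s1 alone stays clear of 0. Of all 9302 expressed genes 584 lower and 425 higher had an unadjusted limma p under 0.05.

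Cytokine and acute phase genes, which include known inducers of C3 and factor B in stromal cells, were also listed. Of 20 measured genes 13 were higher and 7 lower, with a median of 0.08, and none passed adjustment. The gene with the largest statistic was the dim Il1b, which encodes interleukin 1 beta and was named after its values were seen. It read 4.61, 5.03 and 5.23 in controls and 3.96, 4.32 and 4.43 in irradiated cultures, a difference of -0.72 ± 0.10 (SE) with a limma adjusted p of 0.36. The 4 expressed genes with the largest statistic had higher means in irradiated cultures: the pentraxin Ptx3, whose product binds C1q, at 0.66 ± 0.12 (SE), Il6 at 0.71 ± 0.14 (SE), the transcription factor gene Cebpd at 0.55 ± 0.14 (SE) and the feedback inhibitor gene Socs3 at 0.29 ± 0.12 (SE). Ptx3 read 9.89, 9.53 and 9.17 in controls and 10.53, 9.96 and 10.07 in irradiated cultures. The limma adjusted p of these 4 lay between 0.53 and 0.624.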

How the data were processed

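Total RNA (200 ng a sample) was hybridised to Affymetrix mouse arrays. The authors deposited log2 values per probe set to 2 decimals, made with RMA and affy, with limma also named, per the submitters' processing notes. The set of arrays normalized together is not given in the sources used here. Of 45101 probe sets, 64 array controls were left out. The platform annotation gave 34945 of the rest 1 symbol, 932 several and left 9160 unnamed. A gene was represented by its probe set with the highest mean.

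Differences were fitted in R 4.3.3 by limma 3.58.1 (lmFit, eBayes, two-sided, Benjamini-Hochberg over all probe sets), with the experiment as a block, because the design text pairs each irradiated culture with its own control. Deviations from group means of same-numbered arrays correlated across genes at 0.769, 0.0973 and 0.363, so the pairing rests on that text. The fit was tested on simulated data. The members and lists were chosen with earlier results of these data known. Every member is named. Of the other complement genes the rule named those expressed with an unadjusted p under 0.05 and a fixed set where measured. Of the marker and cytokine lists it named the 4 expressed genes with the largest statistic. Genes named outside the rule were chosen after their values were seen (Masp1, Cd93, Fcna, Ptprc, Csf1r, Thy1, Il1b and the dim genes). Likeness to C3 could not be computed without a C3 probe set. Plots were made in Python 3.11.15 using matplotlib 3.10.9.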

Additional observations from a re-analysis of the deposited data

How the results depend on the processing

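The count of complement probe sets past the adjusted threshold, and that of the other complement genes, was 0 under every alternative run, which were dropping the replicate block or making it random, omitting an experiment or the dim probe sets, other scalings (quantile, array median), another prior (trend, robust), weighted arrays, a single or a median probe set for each gene, and expression levels of 5 and 7. Cfb has no value with dim probe sets left out. At an unadjusted p, where the main count was 1, it was 0 without the replicate block, 0 with it as a random effect, 0 to 1 with an experiment left out (0 without experiment 1 or 2) and 3 with the trend and robust prior (4.50% of all probe sets). The count of genes lower in every experiment was 3 (18.7% of expressed genes) and ran from 3 to 6 with an experiment left out. The 6 came without experiment 2 (27.6% of expressed genes). It was 5 with median centring (19.3% of expressed genes), 4 with a median probe set for each gene and 2 at an expression level of 7. For the median probe set and the level of 7 no share over all genes was taken. The F test of the experiments passed 0 in the main setting, 8 with the trend and robust prior (1.59% of all probe sets) and 5 with array weights (0.204%). The C3ar1 difference ran from -0.215 to 0.05 with an experiment left out, the latter without experiment 1. No other member changed sign under the alternatives run. Without experiment 1 the difference of Cfp was -0.01, and without experiment 3 that of C1qc was -0.07. With 2 residual degrees of freedom, small differences of single genes cannot be resolved.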

Other observations

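The 5 widest differences among the other complement genes were in dim ones, named here after their values were seen. Colec11, a soluble lectin that starts the lectin branch, read 5.68, 4.92 and 5.07 in controls and 4.98, 4.10 and 4.17 in irradiated cultures. It was lower in each experiment, by 0.70, 0.82 and 0.90, a mean difference of -0.81 ± 0.10 (SE) with a limma adjusted p of 0.36. Vsig4, a macrophage receptor for C3 fragments, read 4.50, 4.83 and 5.25 in controls and 4.19, 4.50 and 4.25 in irradiated cultures. Its mean difference was -0.55 ± 0.16 (SE), of which experiment 3 gave -1.0, with a limma adjusted p of 0.54. Hc, which encodes C5, was at 3.07 to 3.76 on all arrays and differed by -0.28 ± 0.11 (SE). Itgax, the alpha chain of a complement receptor, differed by -0.28 ± 0.12 (SE). Cpn2, a subunit of the carboxypeptidase that inactivates complement peptides, went the other way with 0.29 ± 0.17 (SE), from -0.12, 0.23 and 0.76 in the 3 experiments. All 5 genes lay below the level of 6 on every array.

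Cd93, a receptor first described as binding C1q, had the widest range of experiment means among the other expressed complement genes, 1.47, and an irradiation difference of -0.08 ± 0.12 (SE). Fcna, a ficolin made by macrophages, was lower by 0.24, 0.04 and 0.31, a mean of -0.20 ± 0.10 (SE). Both had their lowest experiment mean in experiment 1 and their highest in experiment 3. C1qbp, a mitochondrial protein gene named for C1q binding, was higher by 0.11, 0.19 and 0.26, a mean of 0.19 ± 0.10 (SE). None of these 3 passed adjustment.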
